A study of Homo sapiens with 18 samples.

Results

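The genes described here encode 55 core proteins of the spliceosome and its small nuclear ribonucleoproteins (snRNPs). They were chosen by name and not by a rule on measured values, but with earlier results of these data known. All 55 were found by Ensembl identifier among the 20263 genes of the count table, and all 55 were among the 14234 genes tested. The list covers proteins of the U1, U2, U4/U6 and U5 particles, the Sm and LSM rings, the Prp19 complex and catalytic core, RNA helicases and branch-site factors. Subunits of SF3a and SF3b, the complex that the drug binds, are outside it.

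Bulk RNA sequencing was performed on 18 libraries carrying 3 cell line labels: liver cancer MHCC-97H, breast cancer MDA-MB-231 and colon cancer HCT-116. All cells were labelled wild type and were grown in high-glucose DMEM with 10% serum. Under each label, 3 libraries came from cells given DMSO, the solvent, and 3 from cells given 20 nM H3B-8800 for 24 h (day 1). H3B-8800 is a small molecule that binds the SF3b complex and modulates splicing. No label says that replicate libraries were separate cultures, so p-values measure only the spread between these samples, which may be technical. Library totals ran from 28232315 to 41488278 counts, and the lowest count of any of these genes in any library was 146 (CWC22).

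The spliceosome removes introns in a fixed order of steps. The U1 particle binds the 5′ splice site, SF1 and the U2AF proteins mark the branch site and 3′ splice site, and the U2 particle then replaces SF1 at the branch site. The tri-snRNP of U4, U6 and U5 joins next, and helicases and the Prp19 complex remodel the assembly into its catalytic form. Sm proteins form the ring around most spliceosomal snRNAs, and LSM2 to LSM8 form the ring on U6.

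The HCT-116 and MDA-MB-231 labelled libraries had nearly the same expression profile, which bears on every comparison between labels. Over 36 library pairs from these labels, the correlation across all tested genes was 0.987 to 0.994, against 0.719 to 0.753 for pairs that included an MHCC-97H library. Over the 55 spliceosome genes alone it was 0.980 to 0.997 and 0.677 to 0.750. These correlations run across genes, which are not independent replicates. Of 7 intestinal epithelium markers, 6 had 0 counts in all libraries labelled MHCC-97H, while their summed level was 1612 to 1695 CPM under HCT-116 and 1596 to 1660 CPM under MDA-MB-231. CPM are counts scaled to a common library total, with TMM factors applied except for such cell type markers. Of 10 liver markers, 7 had 0 counts under the MHCC-97H label, and the list summed to 4.22 to 5.59 CPM there, 209 to 260 CPM under MDA-MB-231 and 226 to 278 CPM under HCT-116. Most of the sum under MDA-MB-231 and HCT-116 was TF, at means of 157 and 166 CPM. Of the 10, 1 reached a mean of 1 CPM under MHCC-97H, 5 under MDA-MB-231 and 6 under HCT-116. Mammary epithelium markers summed to 1284 to 1866 CPM under MHCC-97H, nearly all of it KRT17, and to 60.6 to 68.2 CPM under MDA-MB-231. Mesenchymal markers summed to 1302 to 1435 CPM under MHCC-97H, mostly VIM. They summed to 8572 to 9241 CPM under MDA-MB-231 and 8350 to 9936 CPM under HCT-116, mostly FN1. Haematopoietic markers summed to at most 2.47 CPM in any library. Whether the labels are right was not tested, and results under HCT-116 and MDA-MB-231 are not treated as evidence from separate lines.

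Promoters are shown for the 5 members called higher under the MHCC-97H label in every setting, and for the 2 with the largest falls there. Those falls were not called in every setting, as given below. Each line holds the 150 bases just before the RefSeq start site on GRCh38.p14, read 5′ to 3′ along the gene. Capitals mark letters searched for on both strands: CCGGAAG (the core of an ETS site, or CTTCCGG on the other strand), GGGCGG (GC box, or CCGCCC) and CCAAT (or ATTGG). The windows are chr15:34969743-34969892 (minus strand) for AQR, chr5:134758629-134758778 (plus) for DDX46, chr4:24584555-24584704 (minus) for DHX15, chr2:180007298-180007447 (minus) for CWC22 and chr17:63774020-63774169 (plus) for DDX42. Those of the genes that fell are chr19:49085301-49085450 (plus) for SNRNP70 and chr6:31806967-31807116 (minus) for LSM2.
AQR: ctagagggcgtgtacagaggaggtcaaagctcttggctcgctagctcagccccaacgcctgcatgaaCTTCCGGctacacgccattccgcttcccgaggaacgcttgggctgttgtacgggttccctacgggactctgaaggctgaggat
DDX46: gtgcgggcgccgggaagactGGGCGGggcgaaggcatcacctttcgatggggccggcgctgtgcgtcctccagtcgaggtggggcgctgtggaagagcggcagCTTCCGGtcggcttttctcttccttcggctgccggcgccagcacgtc
DHX15: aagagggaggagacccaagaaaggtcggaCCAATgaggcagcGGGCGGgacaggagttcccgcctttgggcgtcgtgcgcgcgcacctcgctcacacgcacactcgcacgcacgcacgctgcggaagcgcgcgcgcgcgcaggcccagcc
CWC22: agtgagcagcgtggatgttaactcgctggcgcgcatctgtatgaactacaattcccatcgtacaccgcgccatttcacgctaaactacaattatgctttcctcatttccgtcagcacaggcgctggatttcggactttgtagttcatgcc
DDX42: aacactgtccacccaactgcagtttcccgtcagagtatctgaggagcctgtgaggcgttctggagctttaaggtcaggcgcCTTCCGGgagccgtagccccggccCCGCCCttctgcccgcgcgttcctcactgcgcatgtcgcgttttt
SNRNP70: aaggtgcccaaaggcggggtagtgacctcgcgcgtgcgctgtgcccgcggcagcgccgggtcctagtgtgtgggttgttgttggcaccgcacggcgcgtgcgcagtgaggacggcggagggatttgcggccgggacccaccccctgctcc
LSM2: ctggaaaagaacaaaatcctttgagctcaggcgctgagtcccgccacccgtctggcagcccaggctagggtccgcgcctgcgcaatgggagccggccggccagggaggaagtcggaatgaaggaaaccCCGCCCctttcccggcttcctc

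On GRCh38 the genes themselves lie at chr15:34851782-34969839 (AQR), chr5:134758771-134855133 (DDX46), chr4:24517441-24584550 (DHX15), chr2:179944876-180007113 (CWC22) and chr17:63773603-63819317 (DDX42), with 34, 22, 13, 19 and 18 introns in their main transcripts. SNRNP70 lies at chr19:49085419-49108605 with 9 introns and LSM2 at chr6:31797396-31806984 with 4. These annotated starts are those of GENCODE release 29 and can differ from the RefSeq starts used for the promoters.

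The ETS letters are the sequence feature by which these promoters stood furthest from other promoters, in percentage points, among the 7 motifs searched. RefSeq promoters were matched for 49 of the 55 genes, and SNRPD1, PRPF3, PRPF39, LSM6, PUF60 and CHERP were not used. For 42 of the 49, the bases just after the start were found in a GENCODE transcript of the gene, and for the rest they were not. In the 250 bases before the start, the ETS letters occurred in 21 of 49 promoters (42.9%), against 15.0% of 11021 promoters of tested genes and 8.52% of all 35116 promoters. The GC box letters occurred in 57.1% against 65.7% of promoters of tested genes. CCAAT occurred in 40.8% against 34.4%, and TATAAA in 2.04% against 5.68%. GCATGCGC (an NRF1 site) was found in 3 promoters, TGACGTCA (a CRE) in 1 and AAGATGGCG (a YY1 site) in 0. By response under the MHCC-97H label, the ETS letters lay in 3 of 9 promoters of genes that rose (AQR, DDX46 and DDX42), 6 of 15 of genes that fell and 12 of 25 of genes that were not called. The CWC22 window held none of the 7 motifs. A match is a description of letters, not of a bound site.

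Under the MHCC-97H label, H3B-8800 was followed by higher RNA of a few long, mostly AT-rich helicase and catalytic-core genes. Mostly shorter genes had slightly lower RNA, but none of them was called lower under all 12 alternative settings. Of the 55 genes, 9 rose, 16 fell and 30 were not called at an adjusted p under 0.05. Over all genes tested, 12.9% rose and 14.7% fell (27.6% in either direction), beside 16.4% and 29.1% of the 55. The roles below hold 2 to 7 genes each, so their counts describe these genes only and are not results about a role. The largest rises were 2.30-fold for AQR and 2.05-fold for DDX46. The largest fall was that of SNRNP70, to 0.779 times its control level. The median log2 fold change was -0.13 over the 55 genes and -0.058 over all genes tested. Fewer cells of a type and less RNA per cell cannot be told apart in bulk samples.

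**Figure D1:**
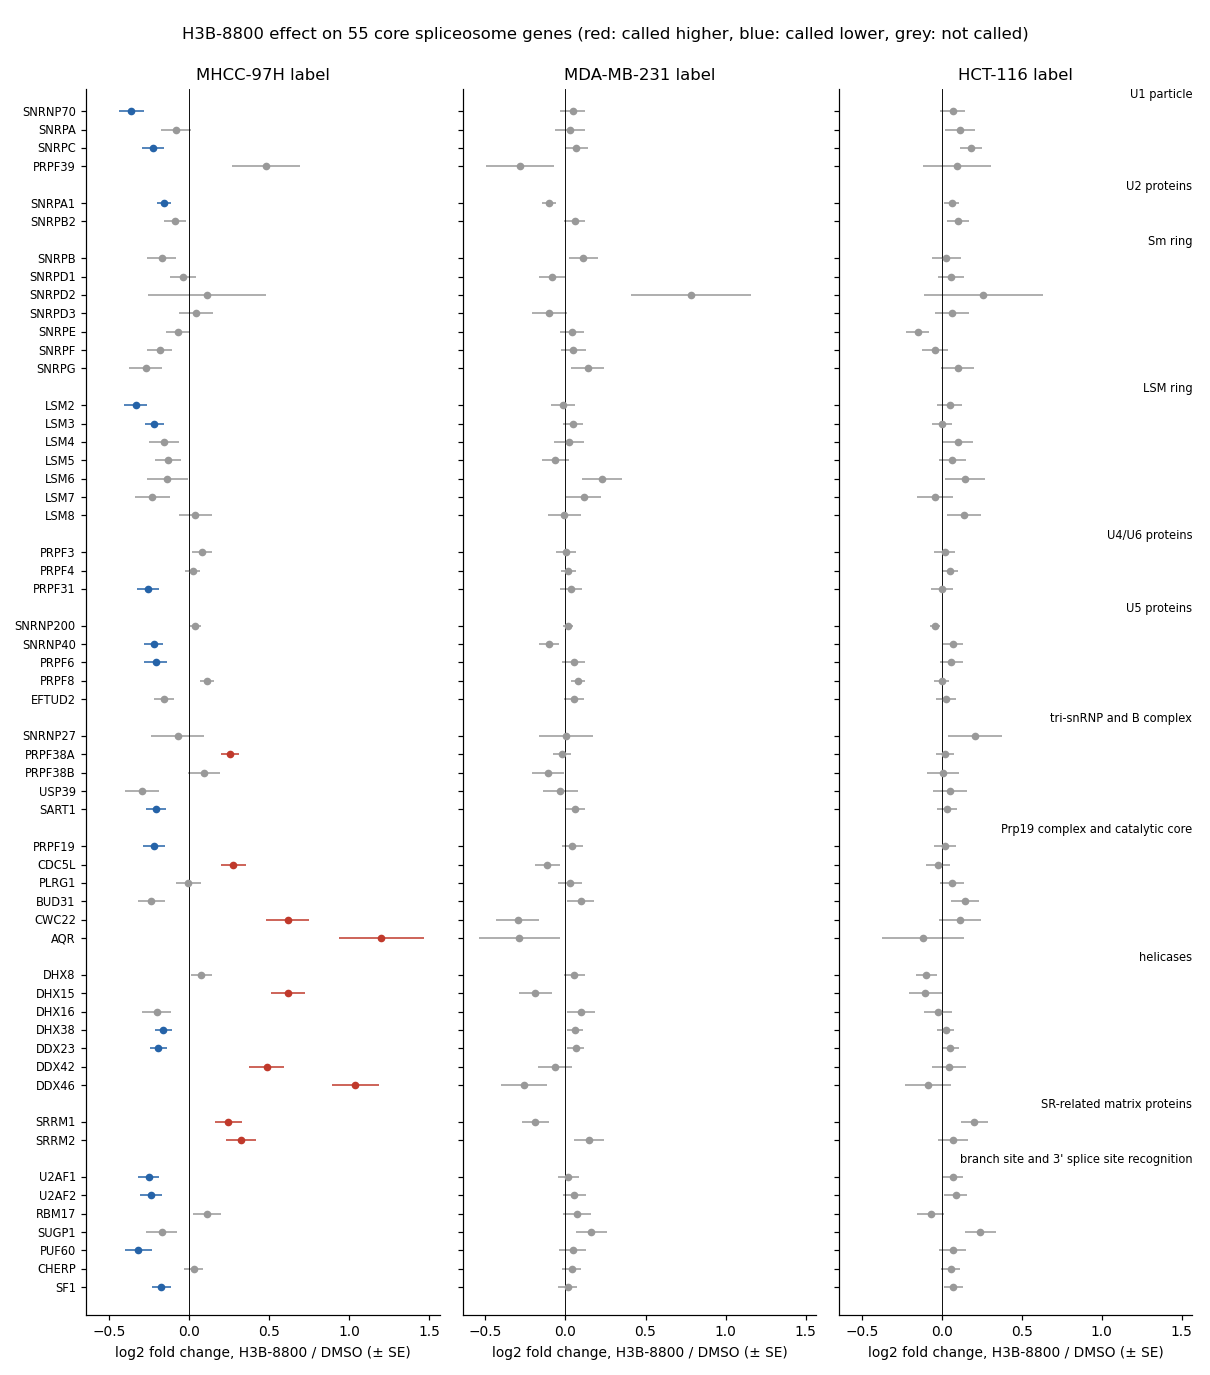
Log2 fold change of H3B-8800 over DMSO (x axis, bars are ± SE of the fit) for the 55 genes in rows grouped by role, with 1 panel for each cell line label. Red points rose, blue points fell and grey points were not called. The MHCC-97H panel holds 9 red and 16 blue points, with AQR at 1.20 and DDX46 at 1.04, and both other panels are grey throughout.

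The calls depended on how libraries were scaled. The TMM factors were 0.860 to 0.891 in the DMSO libraries and 0.952 to 0.967 in the treated libraries of this label, and the 10 most abundant genes held 10.1% to 10.6% and 9.48% to 9.60% of counts. Scaled by library totals alone, 15 of the 55 genes rose and 1 fell (SNRNP70), and the share of all called genes that rose moved from 46.7% to 87.8%. The median log2 fold change of all tested genes was 0.039 with that scaling, against -0.058. AQR, DDX46, DHX15, CWC22 and DDX42 were called higher under all 12 alternative settings and without each of the 18 libraries. Of the 16 genes that fell, 0 were called under all 12 settings. The number that fell was 4 without H3B-8800 replicate 2 of this label, 5 without DMSO replicate 3, 7 without DMSO replicate 2 and 9 without H3B-8800 replicate 1. The log2 fold change of SNRNP70 ran from -0.36 to -0.06 over the settings.

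Among the 7 helicases, 3 rose and 2 fell, beside 12.9% and 14.7% of all tested genes. DDX46, which acts with the U2 particle at the branch site, read 22.6, 17.2 and 17.8 CPM with DMSO and 37.5, 41.9 and 38.8 CPM with H3B-8800 (log2 fold change 1.04 ± 0.15, adjusted p = 0.0010). DHX15, which takes apart spent spliceosomes, read 46.3, 42.1 and 45.5 CPM with DMSO and 69.6, 71.3 and 64.6 CPM with H3B-8800 (log2 fold change 0.62 ± 0.10, adjusted p = 0.0020). In both genes every treated library lay above every control. The share of all tested genes with such separation is not given here, so separation in this report only describes these libraries. DDX42, an SF3b-associated helicase, read 23.2, 21.0 and 22.1 CPM with DMSO and 33.7, 29.9 and 29.1 CPM with H3B-8800 (log2 fold change 0.48 ± 0.11, adjusted p = 0.0060), again without overlap. DDX23, which helps hand the 5′ splice site from U1 to U6, was lower at 164, 166 and 176 CPM with DMSO and 148, 144 and 151 CPM with H3B-8800 (log2 fold change -0.19 ± 0.05, adjusted p = 0.017). Its groups were also separate. DHX38, needed for the second catalytic step, fell (log2 fold change -0.16 ± 0.05, adjusted p = 0.030). About 12.2% of its exonic bases overlap PMFBP1 or TXNL4B, and the strand setting of the counting is not given. DHX16, which activates the complex for the first step, and DHX8, which releases the spliced mRNA, were not called (log2 fold change -0.20 ± 0.09, adjusted p = 0.10 and log2 fold change 0.08 ± 0.07, adjusted p = 0.44).

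In the Prp19 complex and catalytic core, 3 of 6 genes rose and 1 fell, beside 12.9% and 14.7% of all tested genes. AQR, an intron-binding helicase-like protein, had the largest change of all 55 genes. It read 9.77, 5.97 and 7.54 CPM with DMSO and 17.6, 16.8 and 19.1 CPM with H3B-8800 (log2 fold change 1.20 ± 0.27, adjusted p = 0.0060), so the lowest treated library stood at 16.8 CPM against a highest control of 9.77 CPM. CWC22, which brings the exon junction protein EIF4A3 to the spliceosome, read 7.22, 5.93 and 7.07 CPM with DMSO and 9.53, 11.5 and 9.98 CPM with H3B-8800 (log2 fold change 0.61 ± 0.14, adjusted p = 0.0059). CDC5L, a core subunit of the Prp19 complex, read 63.3, 63.1 and 62.0 CPM with DMSO and 76.5, 79.7 and 72.0 CPM with H3B-8800 (log2 fold change 0.28 ± 0.08, adjusted p = 0.016). All 3 rose without overlap between the groups, but the CDC5L rise became -0.01 once the GC and length trend was removed. PRPF19, the ubiquitin ligase of the complex, read 54.9, 56.1 and 56.8 CPM with DMSO and 48.7, 46.4 and 48.9 CPM with H3B-8800 (log2 fold change -0.22 ± 0.07, adjusted p = 0.027), and this fall likewise became 0.02 without the trend. BUD31 was not called (log2 fold change -0.24 ± 0.09, adjusted p = 0.051), and 46.7% of its exonic bases overlap PTCD1 or PDAP1. PLRG1, another subunit of the complex, read 19.7, 21.6 and 21.7 CPM with DMSO and 19.4, 23.3 and 20.2 CPM with H3B-8800, and the groups overlapped (log2 fold change -0.01 ± 0.08, adjusted p = 1).

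SRRM1 and SRRM2, large SR-related proteins of nuclear speckles, both rose. SRRM2 read 329.6, 288 and 303 CPM with DMSO and 389.9, 369.8 and 393 CPM with H3B-8800 (log2 fold change 0.32 ± 0.09, adjusted p = 0.019), with no overlap. SRRM1 read 141, 109 and 111 CPM with DMSO and 141, 146 and 140.2 CPM with H3B-8800 (log2 fold change 0.24 ± 0.08, adjusted p = 0.041), and its first control library was within the range of the treated ones. Both lost their calls once the GC and length trend was removed.

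**Figure D2:**
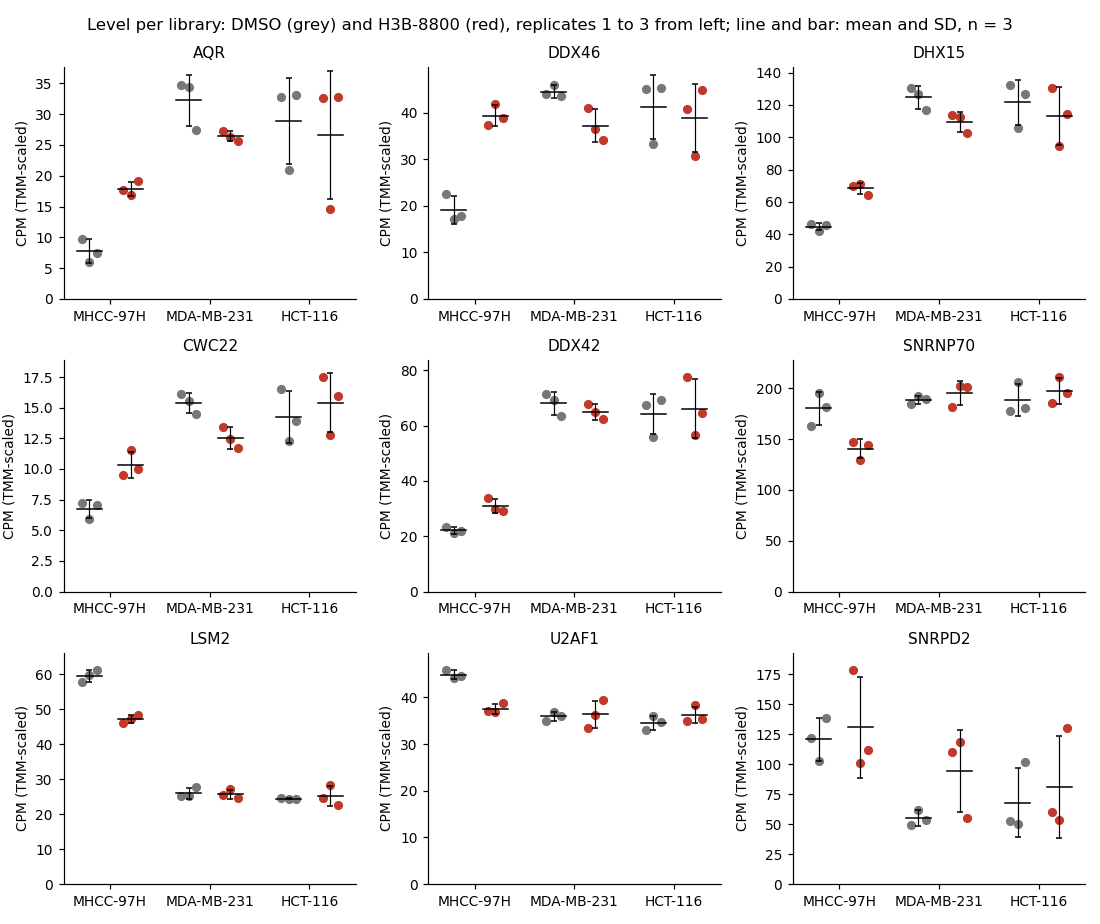
CPM after TMM scaling (y axis, from 0) in each of the 18 libraries for 9 genes, by cell line label (x axis), with DMSO in grey and H3B-8800 in red. Points are single libraries, and the line and bar give mean and SD (n = 3). The 5 genes that rose lie lowest in the MHCC-97H controls, and SNRPD2 shows the widest spread.

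In the U1 particle, 2 of 4 genes fell and none rose, beside 14.7% and 12.9% of all tested genes. SNRNP70, which binds the U1 snRNA, read 163, 196 and 182 CPM with DMSO and 147, 129.8 and 144 CPM with H3B-8800 (log2 fold change -0.36 ± 0.08, adjusted p = 0.0054). SNRPC, which steadies the pairing of U1 with the 5′ splice site, read 124, 131 and 138 CPM with DMSO and 113, 111 and 112 CPM with H3B-8800 (log2 fold change -0.22 ± 0.07, adjusted p = 0.027). In both genes the groups were separate, but neither kept its call once the GC and length trend was removed. SNRPA, the third particle-specific protein, read 72.1, 95.4 and 94.9 CPM with DMSO and 83.2, 84.6 and 79.7 CPM with H3B-8800, and the groups overlapped (log2 fold change -0.08 ± 0.09, adjusted p = 0.56). PRPF39, an accessory factor of U1, read 11.5, 11.3 and 10.5 CPM with DMSO and 16.3, 16.8 and 13.4 CPM with H3B-8800 and was not called (log2 fold change 0.48 ± 0.21, adjusted p = 0.10), although its libraries did not overlap. About 13.2% of its exonic bases overlap FKBP3. GENCODE lists 18 SNRPC pseudogenes, none of them in the count table, so reads from such copies cannot be told apart here.

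Among the U2 proteins, SNRPA1 fell and SNRPB2 was not called. SNRPA1 read 106, 106 and 104 CPM with DMSO and 93.0, 96.0 and 94.9 CPM with H3B-8800 (log2 fold change -0.16 ± 0.04, adjusted p = 0.017), a small but separate shift. SNRPB2, its partner on the U2 snRNA, read 30.4, 30.1 and 32.0 CPM with DMSO and 28.9, 31.0 and 26.9 CPM with H3B-8800, with overlapping groups (log2 fold change -0.09 ± 0.07, adjusted p = 0.35).

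The Sm ring, which is shared by U1, U2, U4 and U5, had 0 of 7 genes called in edgeR, with 2 at an unadjusted p under 0.05 (SNRPF and SNRPG). The log2 fold changes ran from -0.27 (SNRPG) to 0.11 (SNRPD2). SNRPG read 107, 114 and 113 CPM with DMSO and 94.8, 89.0 and 92.5 CPM with H3B-8800, with no overlap (log2 fold change -0.27 ± 0.10, adjusted p = 0.063). SNRPF read 80.4, 86.8 and 88.7 CPM with DMSO and 79.4, 71.9 and 74.0 CPM with H3B-8800 (log2 fold change -0.18 ± 0.08, adjusted p = 0.091), and SNRPB read 166, 173 and 175 CPM with DMSO and 153, 140.4 and 164 CPM with H3B-8800 (log2 fold change -0.17 ± 0.09, adjusted p = 0.17). SNRPE, another subunit, read 104, 106 and 99.6 CPM with DMSO and 99.1, 98.8 and 97.1 CPM with H3B-8800 (log2 fold change -0.07 ± 0.07, adjusted p = 0.53). In these 3 genes too, all treated libraries were below the controls without a call. SNRPD2 varied most between replicates, reading 122, 102 and 138 CPM with DMSO and 179, 101 and 112 CPM with H3B-8800. Its coefficient of variation reached 52.4% in the treated HCT-116 group, where it read 60.2, 53.3 and 130.4 CPM. GENCODE lists 20 SNRPG and 9 SNRPE pseudogenes.

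The LSM ring of U6 had 2 falls among 7 genes and no rise. LSM2 read 57.8, 59.7 and 61.3 CPM with DMSO and 46.1, 47.1 and 48.4 CPM with H3B-8800 (log2 fold change -0.34 ± 0.07, adjusted p = 0.0060). LSM3 read 131, 140.2 and 142 CPM with DMSO and 123, 116 and 116 CPM with H3B-8800 (log2 fold change -0.22 ± 0.06, adjusted p = 0.018), and in both genes the groups were separate. LSM2 lost its call once the GC and length trend was removed. LSM7 read 67.2, 71.5 and 71.4 CPM with DMSO and 60.0, 55.1 and 64.1 CPM with H3B-8800 (log2 fold change -0.23 ± 0.11, adjusted p = 0.13). LSM4, the most abundant LSM RNA per length in these cells, read 301, 363 and 372 CPM with DMSO and 309, 304 and 315 CPM with H3B-8800 (log2 fold change -0.16 ± 0.09, adjusted p = 0.23). Neither was called, and the groups overlapped for LSM4 but not for LSM7. LSM5, LSM6 and LSM8 were not called, at log2 fold changes of -0.13, -0.14 and 0.04.

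Among the U4/U6 proteins, PRPF31 fell and PRPF3 and PRPF4 were not called. PRPF31, which clamps U4 to U6 and is mutated in inherited retinal disease, read 69.2, 73.7 and 67.7 CPM with DMSO and 58.2, 55.6 and 62.3 CPM with H3B-8800 (log2 fold change -0.26 ± 0.07, adjusted p = 0.013). About 32.0% of its exonic bases overlap TFPT or another gene. PRPF3 read 33.4, 40.2 and 37.8 CPM with DMSO and 37.9, 40.0 and 39.8 CPM with H3B-8800 (log2 fold change 0.08 ± 0.06, adjusted p = 0.40), and PRPF4 read 30.0, 30.1 and 31.1 CPM with DMSO and 31.6, 30.3 and 30.7 CPM with H3B-8800 (log2 fold change 0.02 ± 0.05, adjusted p = 0.81). For both of them the groups overlapped.

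Of the 5 U5 proteins, 2 fell. SNRNP40, a repeat protein of U5, read 62.2, 57.1 and 67.9 CPM with DMSO and 52.4, 53.4 and 54.7 CPM with H3B-8800 (log2 fold change -0.22 ± 0.06, adjusted p = 0.016). PRPF6, the bridge between U5 and U4/U6, read 101, 101 and 102 CPM with DMSO and 88.5, 83.5 and 90.6 CPM with H3B-8800 (log2 fold change -0.21 ± 0.07, adjusted p = 0.044). EFTUD2, the U5 GTPase, read 118, 114 and 122 CPM with DMSO and 105, 102 and 109.6 CPM with H3B-8800 and was not called (log2 fold change -0.16 ± 0.06, adjusted p = 0.068). The libraries of all 3 were separate, yet the PRPF6 change turned to 0.03 once the GC and length trend was removed. PRPF8, the scaffold around the active site, read 614, 581 and 621 CPM with DMSO and 656, 632 and 671 CPM with H3B-8800 (log2 fold change 0.11 ± 0.04, adjusted p = 0.077). SNRNP200, the helicase that unwinds U4 from U6, had the highest CPM of the 55 genes in the MHCC-97H controls, at 805 CPM, and was not called (log2 fold change 0.04 ± 0.03, adjusted p = 0.40).

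In the group of tri-snRNP and B complex proteins, 1 of 5 genes rose and 1 fell. PRPF38A, which joins at B complex activation, read 72.0, 72.7 and 72.7 CPM with DMSO and 85.0, 88.2 and 86.4 CPM with H3B-8800 (log2 fold change 0.26 ± 0.05, adjusted p = 0.0051). SART1, a tri-snRNP protein, read 132, 124 and 134 CPM with DMSO and 115, 108 and 114 CPM with H3B-8800 (log2 fold change -0.21 ± 0.06, adjusted p = 0.025). Both were separate between the groups, and both changed sign in at least 1 fit with the GC and length trend removed. USP39, needed for tri-snRNP recruitment, read 57.6, 52.7 and 57.5 CPM with DMSO and 44.8, 45.8 and 46.2 CPM with H3B-8800 (log2 fold change -0.29 ± 0.11, adjusted p = 0.053), which missed the threshold. PRPF38B read 69.8, 80.6 and 77.4 CPM with DMSO and 78.3, 78.3 and 86.4 CPM with H3B-8800 (log2 fold change 0.09 ± 0.10, adjusted p = 0.53), with overlap.

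Of 7 proteins that recognise the branch site or 3′ splice site, 4 fell and none rose, beside 14.7% and 12.9% of all tested genes. A group this small does not allow the shares to be compared. PUF60, a poly-U binding partner of U2AF, read 141, 145 and 153 CPM with DMSO and 118, 111 and 123 CPM with H3B-8800 (log2 fold change -0.32 ± 0.08, adjusted p = 0.014). U2AF2, the large U2AF subunit that binds the polypyrimidine tract, read 181, 196 and 195 CPM with DMSO and 163, 151 and 170.4 CPM with H3B-8800 (log2 fold change -0.24 ± 0.07, adjusted p = 0.021). SF1, the first protein at the branch site, read 71.5, 75.3 and 74.7 CPM with DMSO and 65.8, 65.3 and 65.4 CPM with H3B-8800 (log2 fold change -0.17 ± 0.06, adjusted p = 0.044). In these 3 genes every treated library was below every control, and U2AF2 became 0.04 under the trend fitted on the APPRIS principal transcript. U2AF1, the small subunit that reads the 3′ splice site, read 45.9, 44.1 and 44.6 CPM with DMSO and 37.2, 36.8 and 38.9 CPM with H3B-8800 (log2 fold change -0.25 ± 0.06, adjusted p = 0.011). RBM17, SUGP1 and CHERP, which associate with the U2 particle, were not called.

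The U2AF1 value is uncertain because GRCh38 holds a near-identical copy, U2AF1L5 (chromosome 21, 6484623 to 6499261). U2AF1L5 took 48.6% to 51.0% of the counts of the pair in every library. Summed over the pair, the level was 89.5, 88.4 and 88.9 CPM in the DMSO libraries and 75.3, 74.3 and 77.3 CPM in the treated ones of the MHCC-97H label. U2AF1L5 alone had a log2 fold change of -0.21 ± 0.06 (adjusted p = 0.016). Because near-identical copies split the counts almost evenly, their values are not independent, and the U2AF1L5 change is not separate support for that of U2AF1.

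The response under the MHCC-97H label was related to transcript composition. Across the 55 genes, the log2 fold change had a Spearman correlation of -0.49 with the GC content and 0.58 with the length of the main transcript, against -0.53 and 0.42 across 14223 tested genes, given as a description because genes share the libraries. Under MDA-MB-231 the relation ran the other way, at 0.46 with GC content and -0.21 with length across the 55 genes and 0.31 and -0.19 across all. Under HCT-116 it was 0.08 and -0.40 across the 55 genes and 0.18 and -0.14 across all. The 9 genes that rose had a median GC content of 41.8% and a median length of 4.34 kb. The 16 that fell had 56.6% and 2.14 kb, and the 30 not called had 49.2% and 2.34 kb. AQR has a main transcript of 9.69 kb at 40.3% GC, and SNRNP70 one of 1.57 kb at 64.8% GC.

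**Figure D3:**
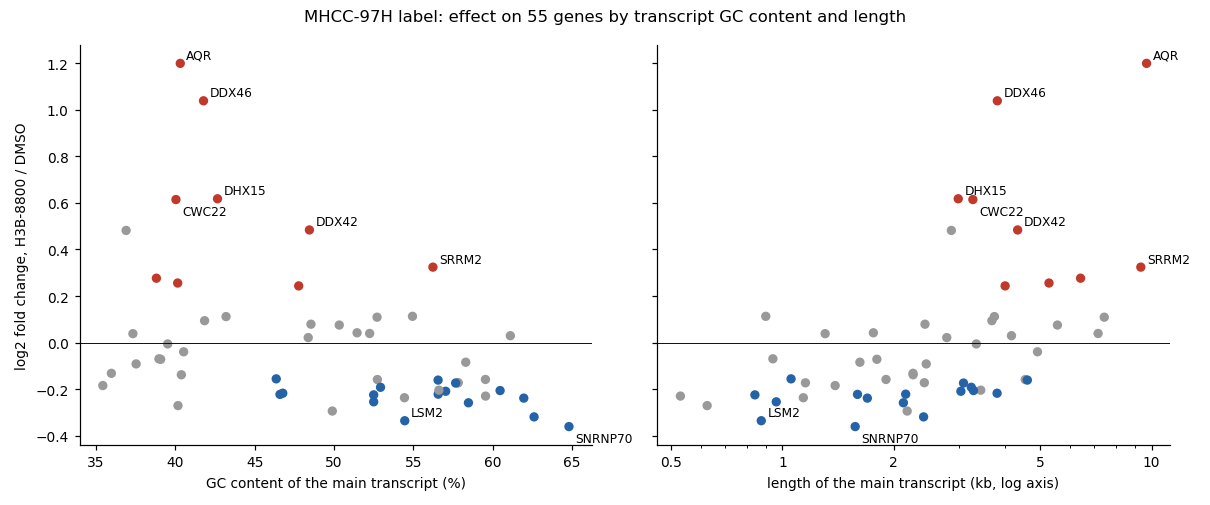
Log2 fold change of H3B-8800 over DMSO under the MHCC-97H label (y axis) against GC content in percent (left) and length in kb on a log axis (right) of the main transcript of each of the 55 genes. Red points rose, blue points fell and grey points were not called. Genes that rose lie mostly at low GC content (median 41.8%) and those that fell at higher GC content (median 56.6%).

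The same axis separated single libraries within groups under the other labels, also among controls. For each library, the deviation of 9232 genes from the mean of its label was correlated with GC content. The values were 0.46 to 0.56 in the MHCC-97H controls and -0.63 to -0.39 in the treated libraries. That mean includes controls and treated libraries, so the opposite signs under MHCC-97H restate the relation of the drug effect given above. Under the MDA-MB-231 label they were -0.42, -0.37 and 0.08 with DMSO and -0.12, 0.14 and 0.57 with H3B-8800, so the treated values were the higher ones on average and the groups overlapped. Under the HCT-116 label, replicate 2 stood apart in both groups, at 0.50 with DMSO and 0.61 with H3B-8800, while the other 4 libraries lay between -0.49 and -0.37. AQR, DDX46, DHX15, CWC22 and DDX42 were all lowest in replicate 2 of both HCT-116 groups. AQR read 32.8, 20.9 and 33.0 CPM with DMSO and 32.6, 14.7 and 32.7 CPM with H3B-8800. For AQR, replicate 2 was thus below the other libraries of both groups by more than the group means differed. Under the MDA-MB-231 label, the same genes were all lowest in replicate 3 of both groups, which had the highest GC correlation in each group. There AQR read 34.8, 34.4 and 27.5 CPM with DMSO and 27.2, 26.3 and 25.6 CPM with H3B-8800.

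After a smooth dependence on GC content and exon length was removed from each library, the 5 genes stayed called higher with smaller changes. AQR became 0.74, DDX46 0.66, DHX15 0.30, CWC22 0.44 and DDX42 0.36 on the log2 scale. CHERP was newly called higher. Of the 16 falls, 4 kept their call (SNRPA1, SNRNP40, U2AF1 and LSM3), and 3 other genes were newly called lower (SNRPG, EFTUD2 and LSM5). With the trend fitted on the APPRIS principal transcript instead, the same 5 rises and 2 of the 16 falls (SNRNP40 and LSM3) kept their calls, and LSM5 was newly called lower. What gives rise to the trend was not tested. Under the MHCC-97H label the trend separated all controls from all treated libraries. Its removal therefore also takes out any drug effect that follows GC content or length, and these cannot be told apart.

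**Figure D4:**
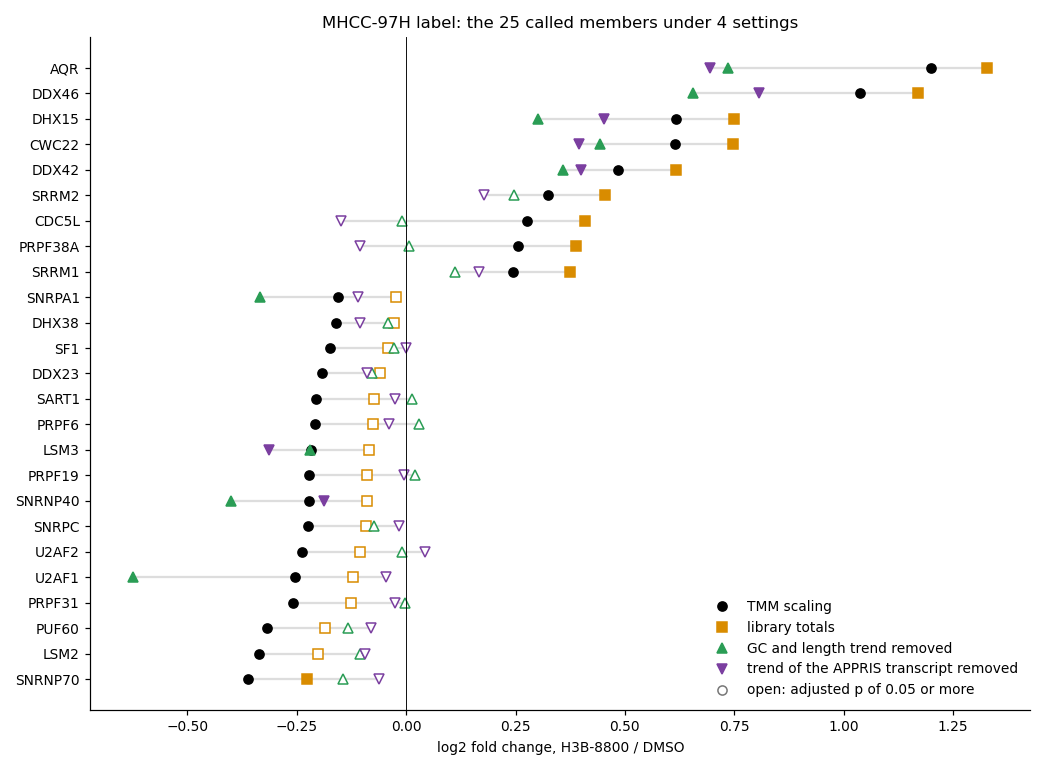
Log2 fold change of H3B-8800 over DMSO (x axis) under the MHCC-97H label for the 25 called genes (rows), with TMM scaling, library totals, and 2 versions of the GC and length trend removed. Filled symbols have an adjusted p under 0.05. AQR, DDX46, DHX15, CWC22 and DDX42 stay filled and to the right throughout, while most genes that fell are open under both versions of the trend. SNRNP40 and LSM3 stay filled under both versions, and SNRPA1 and U2AF1 under 1. With library totals, SNRNP70 alone of the genes that fell stays filled to the left.

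Under the other labels none of the 55 genes was called. With H3B-8800 under the MDA-MB-231 label, 0 of 55 were called in edgeR and 3 had an unadjusted p under 0.05 (SNRPA1, CWC22 and SRRM1), against 0.0351% of all genes called. DESeq2 and limma voom also called 0. Under the HCT-116 label, 0 of 55 were called and 3 had an unadjusted p under 0.05 (SNRPC, SRRM1 and SUGP1), again against 0.0351% called among all genes. There DESeq2 and limma voom called 0. Log2 fold changes ran from -0.30 (CWC22) to 0.78 (SNRPD2) under the MDA-MB-231 label and from -0.15 (SNRPE) to 0.26 (SNRPD2) under the HCT-116 label. The SNRPD2 value of 0.78 ± 0.37 had an unadjusted p of 0.053 in edgeR and came from 2 of the 3 treated libraries, which read 110.1, 119 and 55.6 CPM against 49.5, 62.1 and 53.4 CPM in the controls.

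The H3B-8800 effect differed between the labels for 13 of the 55 genes by the interaction test, against 15.4% of all genes. They were SNRNP70, SNRPC, PRPF38A, DHX15, DDX23, DDX42, DDX46, U2AF1, CDC5L, CWC22, AQR, SRRM1 and LSM2. DDX46 had the smallest adjusted p (0.0061), with log2 fold changes of 1.04 ± 0.15 under MHCC-97H, -0.26 ± 0.14 under MDA-MB-231 and -0.09 ± 0.14 under HCT-116. In the same order, those of DHX15 were 0.62 ± 0.10, -0.19 ± 0.10 and -0.10 ± 0.10, and for AQR 1.20 ± 0.27, -0.29 ± 0.25 and -0.12 ± 0.25. SNRNP70 showed the opposite order, at -0.36 ± 0.08, 0.05 ± 0.08 and 0.07 ± 0.08. The count was sensitive to single libraries, falling to 2 without MHCC-97H DMSO replicate 2 or without MHCC-97H H3B-8800 replicate 2, and to between 3 and 7 without any of 9 others. It rose to 25 with a block for the replicate number, whose meaning the labels do not give.

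Without the drug, more of the 55 genes differed between labels (47) than changed with the drug under the MHCC-97H label (25). Compared with the mean of the other labels, the MHCC-97H controls had 26 of the 55 genes higher and 21 lower, against 40.7% higher and 43.9% lower among all genes tested, so the shares were near the background. With library totals, PRPF8, DHX38 and CDC5L changed sign among these 47 genes. Between the HCT-116 and MDA-MB-231 controls, 0 of 55 genes were called in edgeR, 3 had an unadjusted p under 0.05, and 0.0351% of all genes were called. Line, culture and preparation cannot be told apart in these comparisons.

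Of the 11 roles, the LSM ring had the largest median log2 difference (1.47), with 6 genes higher and LSM6 lower in the MHCC-97H controls. LSM4 read 301, 363 and 372 CPM there, against 64.5 to 74.8 CPM with a median of 72.0 CPM under the other labels (log2 difference 2.28 ± 0.08, adjusted p = 1.9e-13). LSM3 read 131, 140.2 and 142 CPM against 30.5 to 35.3 CPM with a median of 33.3 CPM (log2 difference 2.05 ± 0.05, adjusted p = 4.2e-15). LSM7 read 67.2, 71.5 and 71.4 CPM against 17.4 to 23.8 CPM with a median of 22.3 CPM (log2 difference 1.69 ± 0.09, adjusted p = 4.6e-11). None of these ranges overlapped. All 5 tri-snRNP and B complex genes were also higher, and SNRNP27 read 59.9, 54.8 and 58.9 CPM against 15.3 to 18.1 CPM with a median of 16.2 CPM (log2 difference 1.81 ± 0.14, adjusted p = 3.9e-09). The 3 U4/U6 genes were lower, with log2 differences of -0.16 (PRPF31) to -1.26 (PRPF4). In the Sm ring 5 genes were higher and SNRPB was lower.

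In the MHCC-97H controls, 4 of 6 genes of the Prp19 complex and catalytic core and 4 of 7 helicases were lower, which in groups this small is not far from the 43.9% of all tested genes. AQR read 9.77, 5.97 and 7.54 CPM, against 20.9 to 34.8 CPM with a median of 32.9 CPM under the other labels (log2 difference -1.97 ± 0.25, adjusted p = 2.0e-06). PLRG1 read 19.7, 21.6 and 21.7 CPM against 72.5 to 81.3 CPM with a median of 75.8 CPM (log2 difference -1.86 ± 0.07, adjusted p = 7.3e-13). The 5 genes that rose most steadily with H3B-8800 (AQR, DDX46, DHX15, CWC22 and DDX42) were all among those with lower controls. The treated MHCC-97H libraries of DHX15, CWC22 and DDX42 still lay below all 12 libraries of the other labels, and those of AQR and DDX46 overlapped with them. These comparisons share the MHCC-97H controls with the drug effect, so their values are set side by side only.

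**Figure D5:**
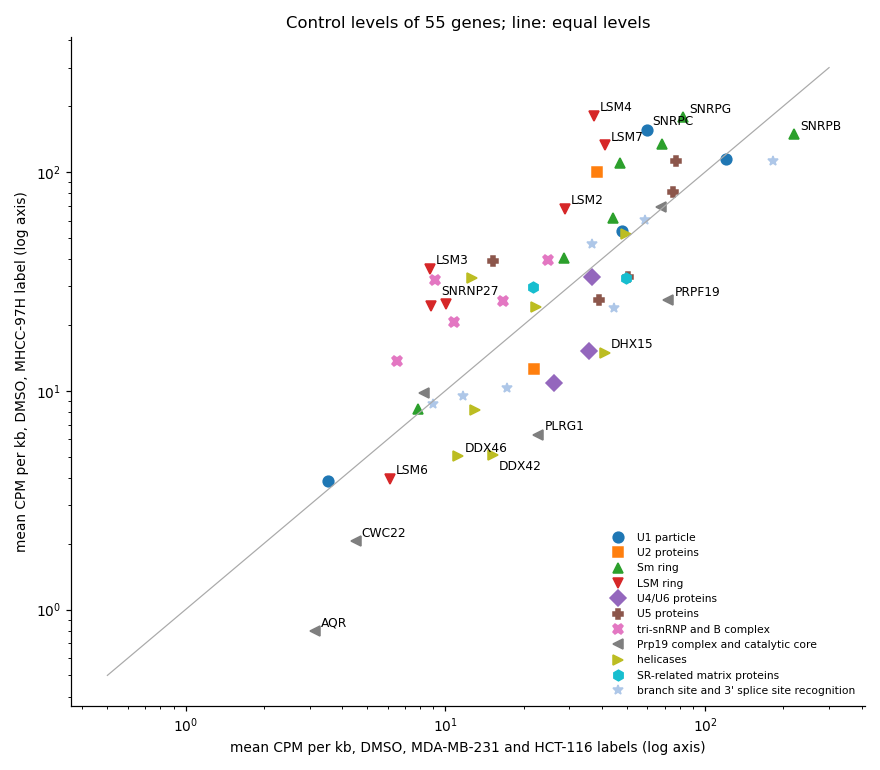
Mean CPM per kb of the main transcript in the DMSO libraries labelled MHCC-97H (y axis) against the mean of the HCT-116 and MDA-MB-231 DMSO groups (x axis) for the 55 genes, both axes on a log scale, with symbols for roles and a line of equal levels. LSM4, LSM3 and LSM7 lie above the line, and AQR, PLRG1 and DDX42 lie below it.

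Levels between genes are given as CPM per kb of the main transcript. In the MHCC-97H controls the highest was LSM4 at 181 CPM per kb, the median 32.1 and the lowest AQR at 0.800. In the MDA-MB-231 controls SNRPB was highest at 220.2 CPM per kb and AQR again lowest at 3.32, and in the HCT-116 controls the same genes were at 218 and 2.98. The summed level of the 55 genes was 5818 to 6067 CPM in the MHCC-97H controls and 5644 to 5857 CPM in the treated libraries, ranges that overlapped. As shares of library totals, the sums were 5125 to 5216 CPM and 5459 to 5600 CPM, so the order of the groups turned with the scaling.

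Other genes of the pathway, in 6 lists with 92 tested genes outside the 55, had 14 rises (15.2%) and 15 falls (16.3%) under the MHCC-97H label, near the 12.9% and 14.7% of all tested genes. Calls for these lists are given from the fit with TMM scaling only. Among the 55 genes, falls numbered 16 in that fit and 1 with library totals. How far the falls in these lists depend on scaling is not shown here. Of 10 SF3a and SF3b genes, 4 fell and 1 rose. SF3B5 fell from 146 ± 6.71 to 113 ± 1.53 CPM, PHF5A from 49.5 ± 3.35 to 38.4 ± 2.52 CPM and SF3B2 from 510.2 ± 17.3 to 447 ± 6.91 CPM. SF3B1, the subunit that carries the drug pocket with PHF5A, was the one that rose, from 214 ± 17.8 to 310.0 ± 9.75 CPM, and was named after its value was seen. Of 11 minor spliceosome genes, RNPC3 and SNRNP48 rose and SCNM1 fell. RNPC3 went from 6.92 ± 0.54 to 10.8 ± 1.07 CPM, and SNRNP48 from 22.6 ± 2.62 to 35.4 ± 1.23 CPM.

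In the list of 41 other spliceosome genes, 9 rose (22.0%) and 8 fell (19.5%), beside 12.9% and 14.7% of all tested genes. RBM25, a U1-associated regulator, rose from 18.2 ± 2.05 to 32.6 ± 0.96 CPM, and PNN, a speckle protein, from 28.5 ± 5.85 to 57.2 ± 2.11 CPM. DNAJC8 fell from 176 ± 6.62 to 142 ± 3.40 CPM. Of 18 snRNP assembly genes, GEMIN5, which reads the snRNA for the SMN complex, rose (log2 fold change 0.32 ± 0.08, adjusted p = 0.0080) and PRMT5, which methylates Sm proteins, fell (log2 fold change -0.32 ± 0.09, adjusted p = 0.015). Among 7 LSM-related genes outside the U6 ring, PATL1 rose and LSM12 fell. Of 5 exon junction complex genes, 0 were called in edgeR and 0 had an unadjusted p under 0.05.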

How the data were processed

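The deposited table holds whole-number read counts per Ensembl gene, made by the authors and not normalized. Per the submitters' processing notes, fastp, HISAT2 and GRCh38 were used, with versions, counting tool and strand setting not given in the sources used here. Totals per library were 28232315 to 41488278 counts. The 55 genes, their roles, the gene lists and the alternatives were chosen with earlier results of these data known.

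The fit used edgeR 4.0.16 under R 4.3.3, with TMM scaling, filterByExpr by group, 1 mean per group over all 18 libraries and the robust quasi-likelihood F test, with Benjamini-Hochberg adjustment over 14234 genes and calls at an adjusted p under 0.05. Every adjusted p in the text is from this test unless another tool is named. Standard errors are of the fitted log2 fold change. The interaction was tested over the 3 labels. Gene models came from GENCODE release 29, which held 20224 of 20263 genes, and the main transcript is the APPRIS principal one. The fitting script was tested on simulated data. Library identity was taken from the labels alone.

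Genes were named by a rule: in each role up to 4 with the smallest adjusted p under the MHCC-97H label, the 6 with the largest difference between labels in DMSO, those called by the interaction, and up to 3 genes from each pathway list. Alternatives were other scaling factors, filters, tools (limma voom 3.58.1 and DESeq2 1.42.0), a replicate block, a fit of 1 label alone, leaving out each library, and removal of a trend on GC content and length (natural splines with 5 degrees of freedom). The version of that trend on the APPRIS transcript was chosen after seeing the data.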

Additional observations from a re-analysis of the deposited data

Results flagged for a closer look

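The H3B-8800 effect differed over the 3 cell line labels for 13 of the 55 genes by the interaction test in edgeR, each adjusted over all genes tested. The adjusted p was 0.0061 for DDX46, 0.0093 for DHX15, 0.018 for CWC22, 0.026 for AQR and 0.026 for SNRNP70. It was 0.029 for SNRPC, 0.036 for SRRM1, 0.041 for LSM2 and 0.043 for both PRPF38A and DDX42. It was 0.044 for DDX23 and 0.045 for both U2AF1 and CDC5L. Over all genes tested, 15.4% passed the same test. The HCT-116 and MDA-MB-231 libraries had nearly the same expression profile, but the test spans all 3 labels and also responds to differences between those labels. For SRRM1 the log2 fold change was 0.24 under MHCC-97H, -0.19 under MDA-MB-231 and 0.20 under HCT-116. Its effect thus differed more between MDA-MB-231 and HCT-116 (-0.39) than between MHCC-97H and HCT-116 (0.04).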

How the results depend on the processing

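Under the MHCC-97H label, the number of genes that rose (9) moved by over 1.5 times only with library totals (15), and was 6 to 11 without single libraries. The number that fell (16) became 1 with library totals, 7 with upper-quartile factors, 7 with the GC and length trend removed, 10 with that trend and the replicate block, and 3 with the APPRIS version of the trend. Without single libraries it ran from 4 to 19, at 4 without H3B-8800 replicate 2, 5 without DMSO replicate 3, 7 without DMSO replicate 2 and 9 without H3B-8800 replicate 1. The number called by the interaction (13) became 8 with no filter, 25 with the replicate block, 7 once the GC and length trend was removed and 4 with its APPRIS version, and ran from 2 to 17 without single libraries. It was 2 without MHCC-97H DMSO replicate 2 or H3B-8800 replicate 2, 3 without DMSO replicate 3, 4 without H3B-8800 replicate 1 or 3, 7 without MDA-MB-231 DMSO replicate 1 or HCT-116 DMSO replicate 1, and 6 without MDA-MB-231 DMSO replicate 2, MDA-MB-231 H3B-8800 replicate 2 or 3, or HCT-116 DMSO replicate 3. Apart from the smaller number of samples, the cause was not tested. Counts of 0 under the other labels stayed 0 in every setting run.

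Direction changed, on the log2 scale, with the GC and length trend removed: PRPF6 to 0.02845, PRPF19 to 0.02011, CDC5L to -0.01050 and SART1 to 0.01384. With the replicate block added these were 0.02853, 0.0201, -0.01024 and 0.01446, and DHX8, not called before, became -0.1942. The APPRIS version gave -0.1054 for PRPF38A, 0.04333 for U2AF2 and -0.1495 for CDC5L. The cause was not tested.

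Same-numbered treated and control libraries correlated across genes at -0.05, 0.06 and 0.02 for MHCC-97H, 0.12, 0.07 and 0.02 for MDA-MB-231 and 0.05, 0.19 and 0.03 for HCT-116, so over all genes the numbers were not taken to pair samples. Over genes of at least 10 CPM, the values were -0.04, 0.14 and 0.02 for MHCC-97H, 0.17, 0.13 and 0.01 for MDA-MB-231 and 0.18, 0.45 and 0.13 for HCT-116. Among unlike-numbered HCT-116 libraries, DMSO 1 with H3B-8800 3 gave 0.27, and the rest ran from -0.36 to 0.05. Pairing under the HCT-116 label is thus possible, most clearly for replicate 2, and was not settled. With the replicate block, 11 genes rose and 20 fell under MHCC-97H, and 25 were called by the interaction.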
